A study of Mus musculus with 9 samples.

Results

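The mitochondrial genome of the mouse encodes 37 transcripts, and all of them were measured here in BV2 cells, an established mouse microglial line that was immortalised with oncogenes and stands in for the resident macrophages of the brain. They were chosen by name, as every row whose symbol begins with mt-, which gave 37 of the 55335 rows of the table: 13 mRNAs, 2 rRNAs and 22 tRNAs. Values were deposited as FPKM, fragments per kilobase of gene scaled to the mapped fragments of the library, for 9 libraries in 3 groups of 3. In the hypoxia plus ethanolamine group, wild-type BV2 cells were kept for 24 h at 1% oxygen with 100 µM ethanolamine, the amino alcohol head group of a membrane phospholipid. The hypoxia group had 24 h at 1% oxygen without the supplement, and the control group is labelled 0 h, with no oxygen level given in the labels. Every contrast with the control thus holds both low oxygen and a later time point, which cannot be told apart. The treatment tag of the controls names a differentiation into fat cells that goes against their titles and the study design, and it was not used. The labels number 3 libraries per group without saying if each was grown apart, so the p-values rest on a spread that may be only technical.

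As background, mitochondrial DNA is transcribed by its own polymerase into long transcripts of each strand, which are cut into single RNAs largely at the tRNAs that punctuate them. The transcript from the heavy-strand promoters holds 12 mRNAs, both rRNAs and 14 tRNAs, and the transcript from the light-strand promoter holds mt-Nd6 and 8 tRNAs. The mRNAs encode core subunits of the respiratory chain: 7 of complex I (NADH dehydrogenase), 1 of complex III (cytochrome b), 3 of complex IV (cytochrome c oxidase) and 2 of complex V (ATP synthase). Oxygen is used up at complex IV, and in many cell types cells in low oxygen lean more on glycolysis and less on this chain.

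The labelled cell type was checked first. Of 9 markers of microglia and macrophages, 6 reached 1 FPKM, and their sum was 902 to 933 FPKM in hypoxia plus ethanolamine, 865 to 992 in hypoxia and 672 to 861 in control. Of these markers Aif1, Tmem119 and P2ry12 stayed below 1 FPKM in every library. None of the 13 markers of neurons, astrocytes, oligodendrocytes and endothelium reached 1 FPKM, and of 4 fat cell markers only Fabp4 did, with Adipoq and Plin1 at 0. The 9 libraries summed to between 324121 and 370322 FPKM and had 11556 to 11924 genes at 1 FPKM or more. The number of reads behind them is unknown. The 37 transcripts held 13.2, 12.7 and 12.6% of all FPKM in hypoxia plus ethanolamine, 10.8, 11.8 and 10.6% in hypoxia and 11.7, 12.99 and 12.6% in control. Among the 20 rows with the highest mean FPKM, 9 were members.

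Nuclear DNA carries old copies of mitochondrial sequence, and these decide how far a value can be assigned to the mitochondrial gene, so the sequences of the clearest case are shown first. On the GRCm38 build, mt-Atp8 and mt-Atp6, which encode the ATP synthase subunits 8 and a, overlap by 43 bases, and the annotated pseudogene Gm10925 on chromosome 1 repeats mt-Atp6 without a difference over 678 of its 681 bases. The lines give the last 90 bases of mt-Atp8 (chrM:7880-7969, plus strand), the first 90 bases of mt-Atp6 (chrM:7927-8016, plus strand) and the first 90 bases of Gm10925 (chr1:24614562-24614651, minus strand), from the GENCODE M21 transcripts, with the 43 shared bases in capitals.
mt-Atp8: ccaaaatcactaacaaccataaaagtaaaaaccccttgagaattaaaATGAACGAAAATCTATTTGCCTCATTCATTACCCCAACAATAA
mt-Atp6: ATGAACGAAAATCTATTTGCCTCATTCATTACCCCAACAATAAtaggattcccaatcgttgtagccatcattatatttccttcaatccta
Gm10925: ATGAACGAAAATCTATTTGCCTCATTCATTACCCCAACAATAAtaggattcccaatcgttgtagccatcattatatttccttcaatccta

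The 3 rows did not move alike between libraries. mt-Atp6 had 4046, 1055 and 3901 FPKM in hypoxia plus ethanolamine, 816, 3424 and 894 in hypoxia and 3615, 4086 and 3952 in control. Its value was thus 1055 FPKM or lower in hypoxia plus ethanolamine library 2 and hypoxia libraries 1 and 3, and 3424 or higher in the other 6. Gm10925 had 4368, 4471 and 4202 FPKM in hypoxia plus ethanolamine, 3483, 3667 and 3503 in hypoxia and 3820.2, 4334 and 4180.4 in control, with no such gap. mt-Atp8, which shares its transcript with mt-Atp6, had 4631, 4525 and 4455 FPKM in hypoxia plus ethanolamine, 3722, 4085 and 3812 in hypoxia and 4153, 4798 and 4561 in control, also with no gap. The ratio of mt-Atp6 to mt-Atp8 was 0.233, 0.219 and 0.235 in the 3 low libraries and 0.838 to 0.876 in the other 6. In each low library the copy was listed at about the level of mt-Atp8, so the low value lay in the mt-Atp6 row alone. Neither the way reads were divided between identical sequences nor its part in these values was given or tested. The share of the mRNAs in all FPKM, the mt-Nd6 ratio and the rRNA to mRNA ratio below were therefore also computed without it. Other shares that hold mt-Atp6 were not.

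**Figure D1:**
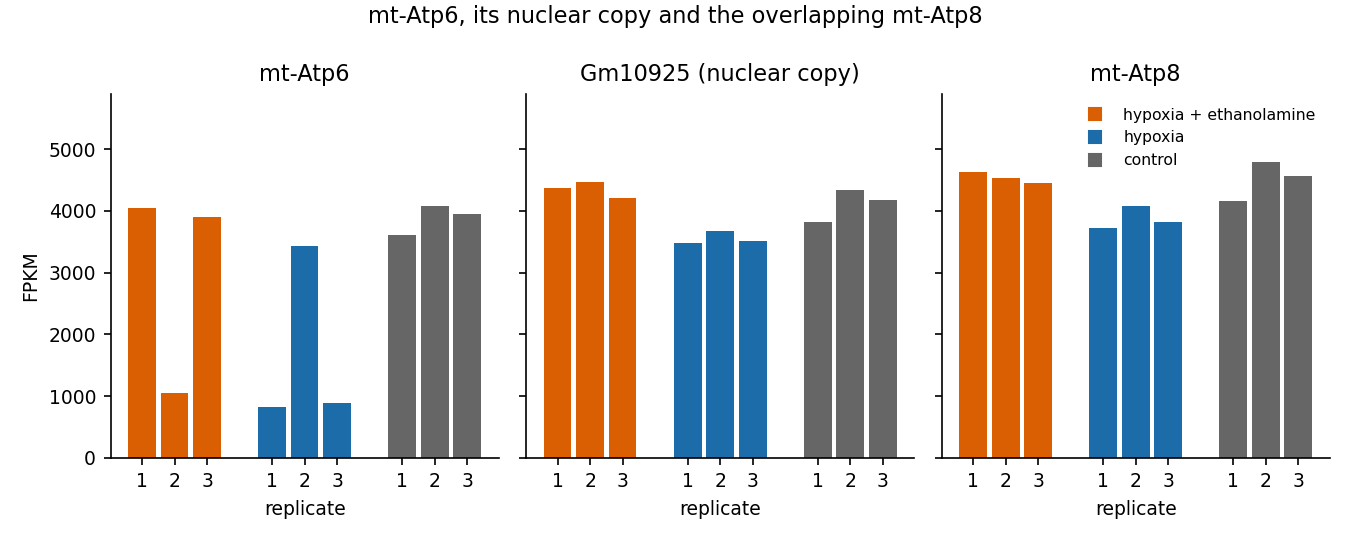
FPKM of mt-Atp6, its nuclear copy Gm10925 and the overlapping gene mt-Atp8 in each of the 9 libraries, one bar per library, coloured by group. The 3 low bars of mt-Atp6 lie at 816 to 1055 FPKM, while Gm10925 stays between 3483 and 4471 and mt-Atp8 between 3722 and 4798.

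Of 11 nuclear rows with at least 95% identity to a member over 200 bases or more, 7 lay side by side on chromosome 1 and were listed at high levels. Gm28661, identical to mt-Co2 over 681 bases, was listed at 1.003 to 1.004 times mt-Co2 in every library, and Gm28437, identical to mt-Co3 over 783 bases, at 0.9996 to 1.002 times mt-Co3. Gm10222, found by its sequence after values were seen, was identical to mt-Nd4l over 294 bases and stood at 1.008 to 1.012 times it. Gm28438 differs from mt-Nd3 by T3C, counted from the first base of the gene, and stood at 1.060 to 1.153 times it. Gm29216 and Gm28439 copy only part of their genes, 483 bases of mt-Co1 with the difference A1066T and 876 bases of mt-Nd4 with none, and stood at 0.492 to 0.593 and 0.516 to 0.643 times them. The other 4 copies, Gm13339, Gm13340, Gm13341 and Gm4076, differ at more positions and stood at 0.0294 times their gene or less, which was also found after values were seen. The 11 copies together held 6.01, 6.04 and 5.42% of all FPKM in hypoxia plus ethanolamine, 5.03, 5.07 and 5.12% in hypoxia and 5.07, 5.28 and 5.30% in control. The values of mt-Co1, mt-Co2, mt-Co3, mt-Atp6, mt-Nd3, mt-Nd4 and mt-Nd4l are uncertain to the extent that reads were shared out between gene and copy, while mt-Nd1, mt-Cytb, mt-Nd6 and the rRNAs had no such copy by this rule. Only annotated transcripts were searched, and the tRNAs are too short to reach 200 bases, so copies of tRNAs were not looked for. mt-Atp8 lies between mt-Co2 and mt-Atp6, whose copies are neighbours on chromosome 1. A copy of mt-Atp8 outside the annotation would have been missed.

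FPKM is scaled by gene length, so the listed values can be ordered within the genome. The libraries were prepared as mRNA libraries, and how far they took up rRNA or short tRNA was not tested. The order of rRNAs and tRNAs against mRNAs is thus one of listed values, not of RNA amounts in the cell. mt-Co1, which encodes the catalytic subunit of cytochrome c oxidase, was highest, with 8962, 9273 and 9249 FPKM in hypoxia plus ethanolamine, 8007, 7927 and 7695 in hypoxia and 6872, 7676 and 7189.9 in control. Its mean over all libraries ranked 2 among all 55335 rows. mt-Co2 and mt-Atp8 followed at means of 4456 and 4304 FPKM, and their ranges overlapped. mt-Nd1, mt-Cytb and mt-Co3, with mt-Atp6, averaged between 2865 and 3395 FPKM, also with overlapping ranges. mt-Nd2, mt-Nd5, mt-Nd4, mt-Nd6 and mt-Nd4l averaged between 1122 and 1771, and mt-Nd3, a small complex I subunit, was lowest of the mRNAs at 467 FPKM. The rRNAs mt-Rnr1 and mt-Rnr2 averaged 1652 and 1053 FPKM. The tRNAs covered a wider range, from mt-Tn at a mean of 421 FPKM to mt-Td at 1.23, and all 37 members had a mean of at least 1 FPKM.

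**Figure D2:**
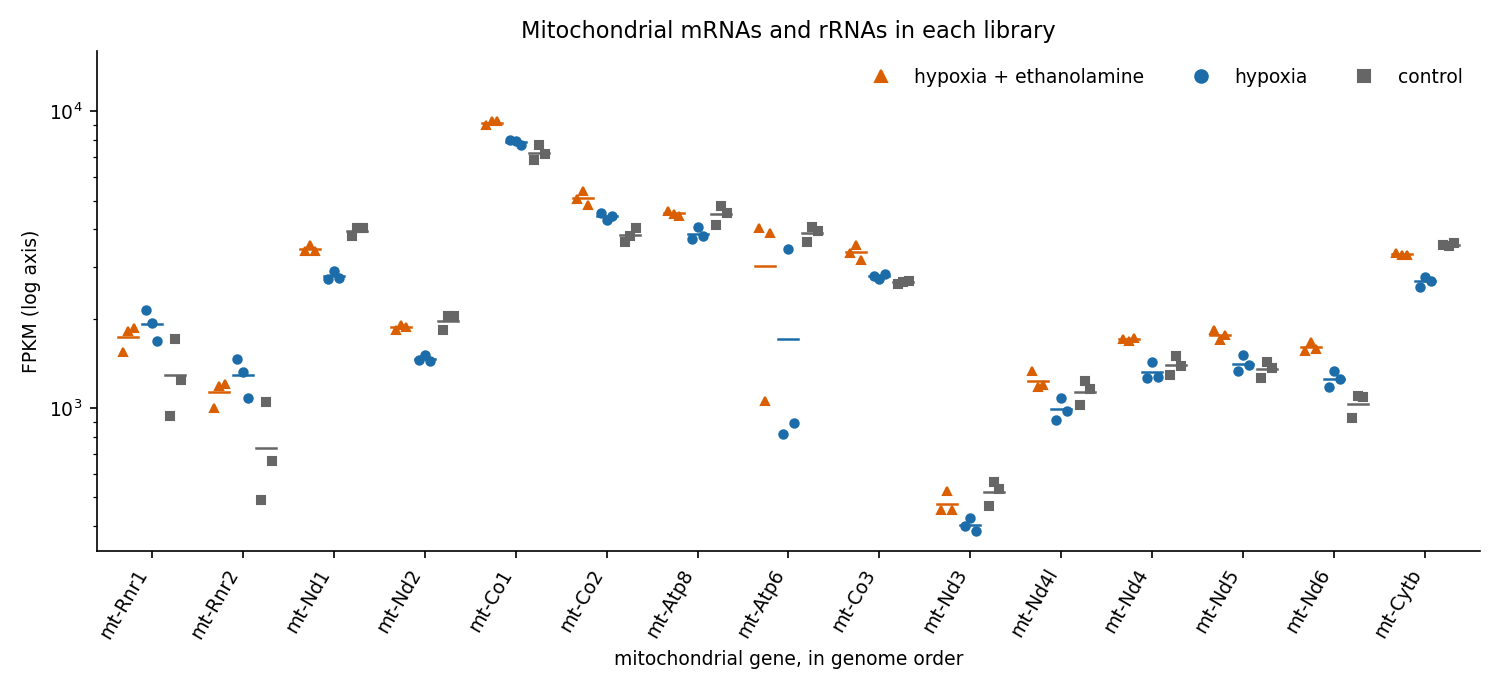
FPKM (log axis) of the 15 mitochondrial mRNAs and rRNAs in genome order, with a point for each library and a line at each group mean. mt-Co1 lies at 6872 to 9273 FPKM, mt-Nd3 at 386 to 564, and the hypoxia points of mt-Nd1 and mt-Cytb lie below those of both other groups.

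Low oxygen for 24 h was compared with the control to ask which mitochondrial transcripts differ. The complex I mRNAs mt-Nd1, mt-Nd2 and mt-Nd3 and the complex III mRNA mt-Cytb were lower in hypoxia, by 0.37 to 0.51 on the log2 scale, whereas the complex IV mRNA mt-Co2, the light-strand mRNA mt-Nd6, both rRNAs and 3 light-strand tRNAs were higher. By limma on log2(FPKM + 0.5), with Benjamini-Hochberg adjustment over 11802 genes, 16 of 37 members passed an adjusted p of 0.05, 7 higher and 9 lower (3 and 12 under quantile scaling). Of all genes tested 59.4% passed, 24.7% higher and 34.7% lower, so the members' count is below that background. The median log2 change was -0.12 over the 37 members and -0.09 over all genes tested. Of the 13 mRNAs 4 were higher and 6 lower without overlap of the groups, where 27.3% of all genes were higher and 37.7% lower in that way. Without the filter on low values, which raised the number of genes tested to 27339, the members that still passed were mt-Rnr2, mt-Nd2, mt-Nd3, mt-Tf, mt-Tw, mt-Td and mt-Th. In RNA from many cells, fewer cells with a transcript and less of it per cell cannot be told apart.

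Among the complex I mRNAs, mt-Nd1, the membrane subunit next to the quinone site, had 2729, 2894 and 2734 FPKM in hypoxia and 3802, 4044 and 4038 in control. Every hypoxia library was below every control library (log2 change -0.51 ± 0.07 SE, adjusted p = 0.000233 by limma). mt-Nd2, a proton-pumping subunit, averaged 1468 ± 41.4 FPKM in hypoxia and 1972 ± 119.7 in control (SD, n = 3 each; log2 change -0.42 ± 0.07 SE, adjusted p = 0.000644 by limma). mt-Nd3 had 399, 426 and 386 FPKM in hypoxia and 469, 564 and 532 in control, again without overlap (log2 change -0.37 ± 0.09 SE, adjusted p = 0.00698 by limma). The other complex I mRNAs of the heavy-strand transcript did not pass: the log2 change was -0.19 ± 0.10 SE (adjusted p = 0.113 by limma) for mt-Nd4l, -0.08 ± 0.08 SE (adjusted p = 0.411 by limma) for mt-Nd4 and 0.06 ± 0.08 SE (adjusted p = 0.529 by limma) for mt-Nd5. Of these mt-Nd4l passed without control library 1 (adjusted p = 0.0424) and mt-Nd4 under quantile scaling (lower, adjusted p = 0.00876), though its change was above 0 under median-of-ratios scaling. The mRNAs called lower did not follow distance from the rRNAs. They were mt-Nd1 and mt-Nd2, which lie nearest, mt-Nd3 further on, and mt-Cytb, the last mRNA of the genome. Of the mRNAs in between, mt-Nd4 and mt-Nd5 had overlapping groups and no complex IV mRNA was called lower. mt-Cytb, the only mitochondrial subunit of complex III, had 2556, 2774 and 2691 FPKM in hypoxia and 3535, 3524 and 3604 in control, without overlap (log2 change -0.41 ± 0.07 SE, adjusted p = 0.000653 by limma).

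All complex IV mRNAs had higher FPKM in each hypoxia library than in any control library, but only mt-Co2 passed the test, and mt-Co1 changed sides under quantile scaling. mt-Co1 averaged 7877 ± 162 FPKM in hypoxia and 7246 ± 405 in control (SD, n = 3 each), a log2 change of 0.12 ± 0.08 SE (adjusted p = 0.235 by limma) that is -0.56 under quantile scaling and passes under median-of-ratios scaling (adjusted p = 0.0470). mt-Co2, which carries the copper centre that takes electrons from cytochrome c, had 4561, 4319 and 4429.9 FPKM in hypoxia and 3621, 3798 and 4031 in control (log2 change 0.22 ± 0.08 SE, adjusted p = 0.0431 by limma). That call was lost without hypoxia plus ethanolamine library 1 or 3, or hypoxia library 1 or 3, or control library 1, 2 or 3 (limma, adjusted p from 0.0569 to 0.129), and it was kept in 9 of 20 other settings, quantile scaling not among them. mt-Co3, a structural subunit, had 2794, 2727 and 2823 FPKM in hypoxia and 2615, 2666 and 2678 in control (log2 change 0.07 ± 0.07 SE, adjusted p = 0.440 by limma). In complex V, mt-Atp8 averaged 3873 ± 189 FPKM in hypoxia and 4504 ± 326 in control, with no overlap and a log2 change of -0.22 just over the threshold (SE 0.08, limma, adjusted p = 0.05004). It passed when hypoxia library 2 (limma adjusted p = 0.0303) or control library 1 (adjusted p = 0.0239) was left out. It also passed with a pseudocount of 0.1, a filter at 5 FPKM, quantile scaling, rescaling without mitochondrial and rRNA-like rows, or no mean-variance trend (adjusted p from 0.00170 to 0.0475). mt-Atp6, with the gap between libraries given above, had a log2 change of -1.51 ± 0.62 SE (adjusted p = 0.0629 by limma); it passed without hypoxia plus ethanolamine library 2 (adjusted p = 0.0265) or hypoxia library 2 (adjusted p = 0.0072). It also passed under quantile scaling (adjusted p = 0.0436) and with these 2 groups alone (adjusted p = 0.0411).

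Ratios within a library do not depend on a scaling factor between libraries. The log2 ratio of the mean log2 FPKM of the 3 complex IV mRNAs over that of the 6 heavy-strand complex I mRNAs, a ratio chosen after its values were seen, was 2.01, 1.83 and 1.96 in hypoxia and 1.60, 1.49 and 1.55 in control. The mean difference was 0.39, given as a description with no test. When each mRNA was set against the mean of the 12 other than mt-Atp6 in its own library, mt-Co1, mt-Co2, mt-Co3, mt-Nd5 and mt-Nd6 were higher in hypoxia without overlap, and mt-Nd1, mt-Nd2, mt-Nd3, mt-Cytb, mt-Atp8 and mt-Atp6 were lower. Such centring on the members themselves fixes the balance of higher and lower, so these values only order the mRNAs against each other. The relative log2 level of mt-Nd1 was 0.49 ± 0.01 in hypoxia and 0.87 ± 0.03 in control, and that of mt-Co2 was 1.16 ± 0.09 in hypoxia and 0.82 ± 0.06 in control (SD, n = 3 each). The 13 mRNAs together held 9.06, 10.3 and 9.20% of FPKM in hypoxia and 10.8, 11.6 and 11.5% in control, a difference of -1.78 percentage points (exact permutation test, two-sided, p = 0.1, the smallest that 3 against 3 allows). When the rRNA-like rows described below were taken out of the library sum, the shares were 9.98, 11.6 and 9.89% in hypoxia and 11.005, 12.46 and 11.9% in control, with overlap and a difference of -1.30 points (exact permutation p = 0.2). Without mt-Atp6 the shares were 8.83, 9.28 and 8.94% in hypoxia and 9.69, 10.4 and 10.3% in control, still apart, and the difference was -1.09 points. With FPKM times gene length, as a share of fragments, the groups also overlapped and the difference was -0.323 points (exact permutation p = 0.2).

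mt-Nd6, a complex I subunit, is the only mRNA of the light-strand transcript. It had 1182, 1329.6 and 1249 FPKM in hypoxia and 925, 1096 and 1086 in control, with every hypoxia library above every control library (log2 change 0.28 ± 0.09 SE, adjusted p = 0.0198 by limma). The call was lost without hypoxia library 2, or control library 1 (limma, adjusted p from 0.0558 to 0.0570) and under quantile scaling, and kept in 16 of 20 other settings. Against the mean FPKM of the 12 heavy-strand mRNAs, the log2 ratio of mt-Nd6 was -1.11, -1.10 and -1.03 in hypoxia and -1.62, -1.51 and -1.49 in control, a difference of 0.46 without overlap (exact permutation p = 0.1). Without mt-Atp6 the difference was 0.37, with the groups still apart. The strand setting of the authors' counting is not given in the sources used here, so reads of mt-Nd6 and of heavy-strand RNA opposite it cannot be told apart.

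**Figure D3:**
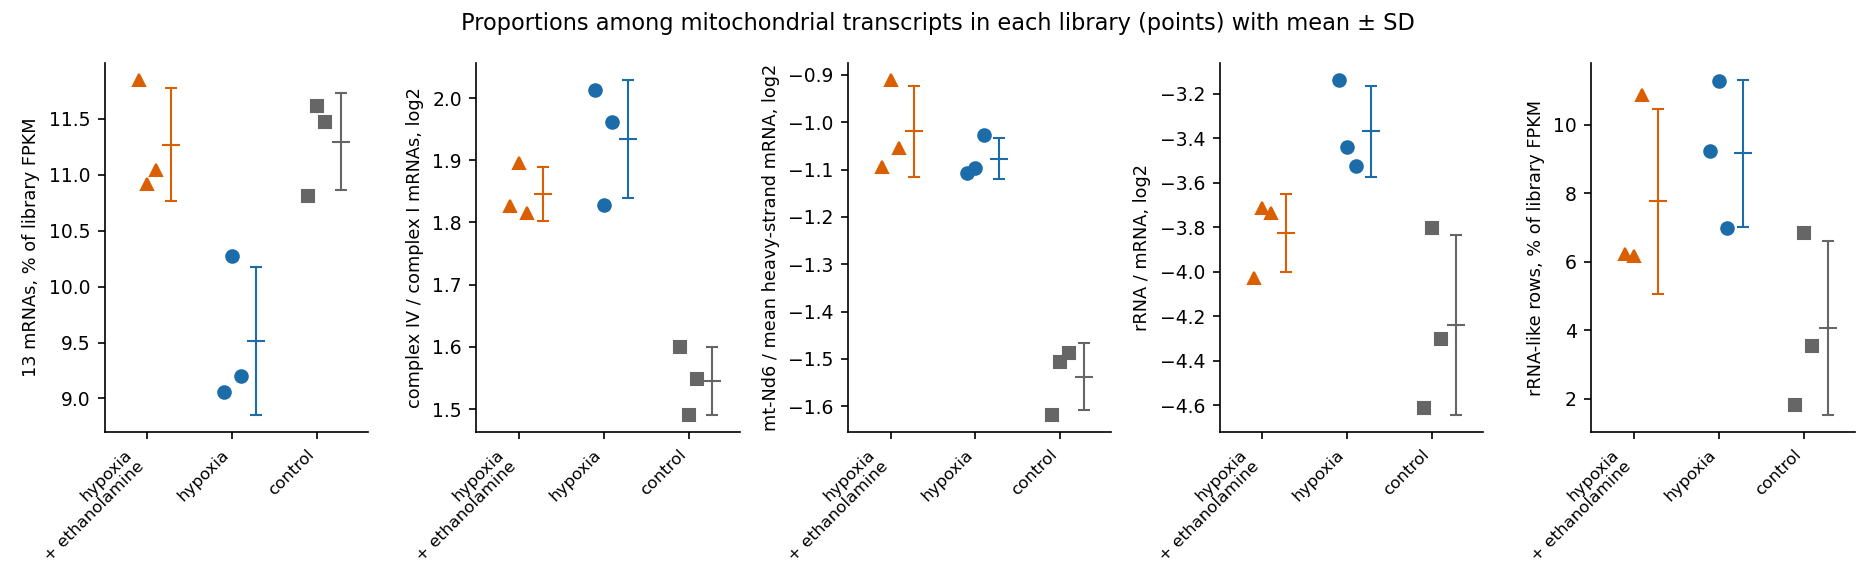
Share of the 13 mRNAs in library FPKM, complex IV over complex I mRNAs, mt-Nd6 over heavy-strand mRNAs, rRNA over mRNA (all log2 except shares), and the share of the 358 rRNA-like rows, by group; points are libraries and bars are mean ± SD (n = 3). For complex IV over complex I and for mt-Nd6 over heavy-strand mRNAs, both low-oxygen groups lie above all control libraries.

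Both mitochondrial rRNAs, the small-subunit mt-Rnr1 and the large-subunit mt-Rnr2 that form the cores of the mitochondrial ribosome, were higher in hypoxia. mt-Rnr1 had 2138, 1942 and 1677 FPKM in hypoxia and 942, 1706 and 1245 in control, where hypoxia library 3 fell below control library 2 (log2 change 0.60 ± 0.20 SE, adjusted p = 0.0260 by limma). Its call was lost without hypoxia library 1 or 2, or control library 1 or 3 (limma, adjusted p from 0.0607 to 0.0868) and under quantile scaling (adjusted p = 0.105). mt-Rnr2 had 1468, 1326 and 1084 FPKM in hypoxia and 490.4, 1045 and 662 in control, without overlap (log2 change 0.88 ± 0.24 SE, adjusted p = 0.0117 by limma), and this call was kept in 20 of 20 other settings. The log2 ratio of summed rRNA to summed mRNA was -3.14, -3.44 and -3.53 in hypoxia and -4.61, -3.81 and -4.30 in control, a difference of 0.87 (exact permutation p = 0.1) that was 0.79 without mt-Atp6. The share of 358 rows annotated as or named like ribosomal RNA of the nuclear genome moved with it: 9.23, 11.3 and 6.99% of FPKM in hypoxia and 1.81, 6.83 and 3.53% in control. The libraries of the control had the same order by this share as by mt-Rnr1 and mt-Rnr2, but those of hypoxia did not: library 2 had the highest share and library 1 the highest mt-Rnr1 and mt-Rnr2. The part of that share in the rRNA values was not tested.

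Of the light-strand tRNAs, 4 lie next to each other between mt-Nd2 and mt-Co1, at the place where replication of the light strand begins. Their log2 changes against the control were the highest among the tRNAs in both low-oxygen groups. In hypoxia, mt-Tw and mt-Tf of the heavy-strand transcript, both lower, had smaller adjusted p-values by limma than these 4. The 4 are shown whole, read on their own strand (minus, GRCm38, GENCODE M21), with the anticodon in capitals: mt-Ta for alanine (chrM:5018-5086), mt-Tn for asparagine (chrM:5089-5159), mt-Tc for cysteine (chrM:5192-5257) and mt-Ty for tyrosine (chrM:5260-5326).
mt-Ta: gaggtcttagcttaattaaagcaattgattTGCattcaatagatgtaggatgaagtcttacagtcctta
mt-Tn: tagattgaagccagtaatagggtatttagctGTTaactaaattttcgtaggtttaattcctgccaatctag
mt-Tc: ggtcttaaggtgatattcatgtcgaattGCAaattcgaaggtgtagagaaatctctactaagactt
mt-Ty: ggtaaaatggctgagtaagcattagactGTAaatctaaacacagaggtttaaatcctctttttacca

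Summed over these 4 genes, FPKM were 1045, 2024 and 1545 in hypoxia plus ethanolamine, 1427, 801 and 983 in hypoxia and 545, 606 and 729.8 in control. Every low-oxygen library was above every control library, and libraries of 1 group differed up to 1.94-fold. In hypoxia against control mt-Tn averaged 421 ± 128 FPKM in hypoxia and 243 ± 36.2 in control (log2 change 0.76 ± 0.27 SE, adjusted p = 0.0377 by limma). mt-Tc averaged 251 ± 82.1 FPKM in hypoxia and 138 ± 29.2 in control (log2 change 0.84 ± 0.29 SE, adjusted p = 0.0336 by limma), and mt-Ty 117 ± 28.5 in hypoxia and 75.8 ± 14.8 in control (log2 change 0.62 ± 0.23 SE, adjusted p = 0.0401 by limma). mt-Ta had overlapping groups, 370.5, 200.4 and 273 FPKM in hypoxia and 163, 147 and 201 in control, and did not pass (log2 change 0.69 ± 0.27 SE, adjusted p = 0.0534 by limma). Each of these outcomes changed when some single libraries were left out. That of mt-Tn was lost without hypoxia plus ethanolamine library 3, or hypoxia library 1 or 3, or control library 1 or 2 (limma, adjusted p from 0.0512 to 0.132). That of mt-Tc was lost without hypoxia library 1, or control library 1 or 2 (limma, adjusted p from 0.0543 to 0.118). That of mt-Ty was lost without hypoxia plus ethanolamine library 3, or hypoxia library 1 or 3, or control library 1 (limma, adjusted p from 0.0547 to 0.140). mt-Ta passed without hypoxia plus ethanolamine library 1 or 2, or hypoxia library 2 (limma, adjusted p from 0.0199 to 0.0334). It also passed with a filter at 5 FPKM, median-of-ratios scaling, either rescaling without mitochondrial and rRNA-like rows (nuclear copies kept or also left out), or these 2 groups alone (adjusted p from 0.0332 to 0.0482). Under quantile scaling mt-Tn no longer passed (adjusted p = 0.0541).

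Of the 8 light-strand tRNAs 3 were higher in hypoxia and none was lower, and of the 14 heavy-strand tRNAs none was higher and 5 were lower, where 24.7% of all genes tested were higher and 34.7% lower. The 5 of 14 lower are near that background, and the 3 of 8 rest on the neighbouring genes shown above. The median log2 change was 0.44 over the light-strand and -0.28 over the heavy-strand tRNAs. mt-Tw, for tryptophan, whose gene borders the 4 light-strand tRNAs but belongs to the other transcript, had 25.2, 25.3 and 23.4 FPKM in hypoxia and 38.1, 38.9 and 33.2 in control, without overlap (log2 change -0.56 ± 0.08 SE, adjusted p = 0.000248 by limma). mt-Tf, for phenylalanine, the first gene of the heavy-strand transcript, averaged 19.9 ± 0.873 FPKM in hypoxia and 29.8 ± 5.33 in control (log2 change -0.55 ± 0.13 SE, adjusted p = 0.00469 by limma). mt-Th, for histidine, had 160.0, 135 and 127 FPKM in hypoxia and 199.7, 183 and 201 in control (log2 change -0.47 ± 0.13 SE, adjusted p = 0.0105 by limma). mt-Td, for aspartate, was low, at 0.620 ± 0.136 FPKM in hypoxia and 1.85 ± 0.2996 in control (log2 change -1.07 ± 0.17 SE, adjusted p = 0.000488 by limma), where the pseudocount understates the change. mt-Tg, for glycine, averaged 4.35 ± 0.953 FPKM in hypoxia and 7.68 ± 2.64 in control with overlap (log2 change -0.72 ± 0.26 SE, adjusted p = 0.0364 by limma), a call lost without hypoxia library 2 or 3, or control library 2 or 3 (limma, adjusted p from 0.0548 to 0.125). It was also lost under median-of-ratios or quantile scaling and with these 2 groups alone (adjusted p from 0.0518 to 0.0681). The other 13 tRNAs besides mt-Ta did not pass, and their log2 changes were 0.46 for mt-Tv, 0.27 for mt-Te, 0.21 for mt-Tl2, 0.06 for mt-Tt, -0.02 for mt-Tk, -0.10 for mt-Tq, -0.12 for mt-Tl1, -0.12 for mt-Ts2, -0.21 for mt-Tr, -0.23 for mt-Tp, -0.35 for mt-Tm, -0.40 for mt-Ti and -0.54 for mt-Ts1. Of these, some passed with 1 library left out: mt-Tm without hypoxia plus ethanolamine library 1 or 2 (adjusted p = 0.0303 and 0.0292), mt-Ts1 without hypoxia library 2 or control library 1 (adjusted p = 0.0198 and 0.0227), and mt-Ti and mt-Te without control library 2 (adjusted p = 0.0122 and 0.0431). mt-Tm also passed under either rescaling without mitochondrial and rRNA-like rows and with these 2 groups alone (adjusted p from 0.0264 to 0.0299), and mt-Ts1 under quantile scaling and without the mean-variance trend (adjusted p = 0.0336 and 0.0495). The tRNA genes are 59 to 75 bases long, and mature tRNA cannot be told apart here from precursor RNA that spans it. As for mt-Nd6, the strand setting is not given, so reads of a tRNA and of RNA opposite it cannot be told apart. This holds for the values by strand in every comparison.

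**Figure D4:**
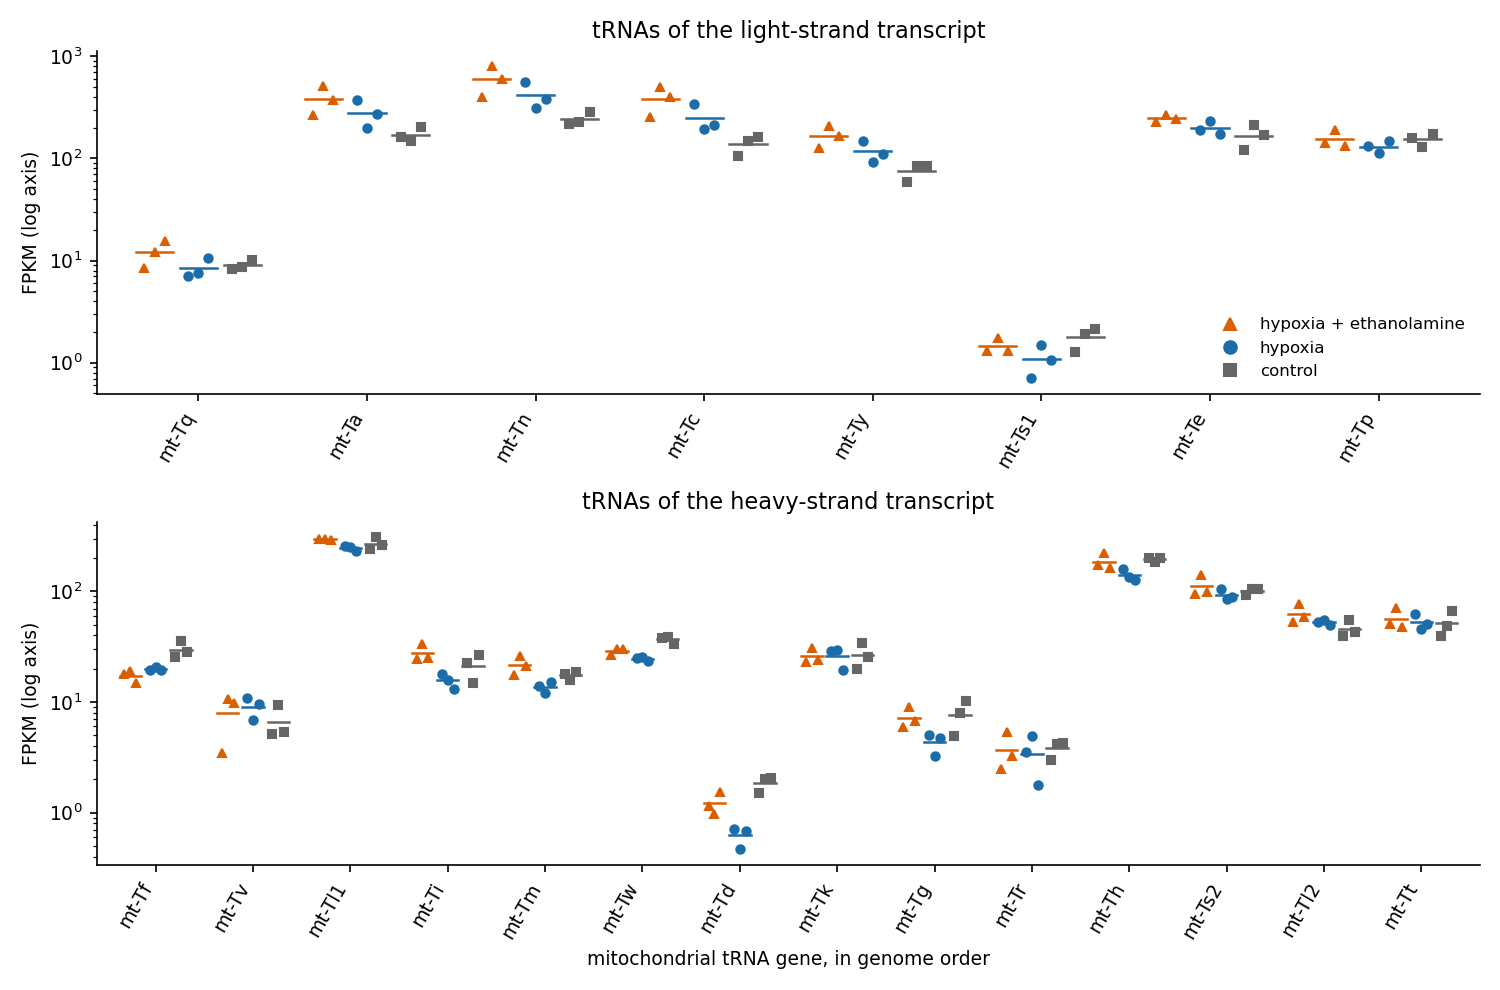
FPKM (log axes) of the 8 tRNAs of the light-strand transcript (top) and the 14 of the heavy-strand transcript (bottom), with a point for each library and a line at each group mean. mt-Tn, mt-Tc and mt-Ty lie higher in all low-oxygen libraries than in any control library, and mt-Tf and mt-Tw lie lower.

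Ethanolamine under low oxygen was compared with low oxygen alone to ask what the supplement adds. All mitochondrial mRNAs had higher values with ethanolamine, by 0.20 to 0.37 on the log2 scale for the 12 other than mt-Atp6 (mt-Co1 and mt-Co3 changed sides under quantile scaling), but no member passed an adjusted p of 0.05. Of all genes tested 0.568% passed, a share that was 0 without hypoxia library 3, and the lowest adjusted p of a member was 0.0795, for mt-Nd2. At an unadjusted limma p under 0.05 there were 19 of 37 members, against 14.7% of all genes tested. Members cut from a shared transcript are not separate events to set beside such a share, here and below. No other setting called a member.

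For 12 of the 13 mRNAs every hypoxia plus ethanolamine library was above every hypoxia library, against 10.5% of all genes tested. Their median log2 change, with mt-Atp6 left out, was 0.31, against 0.01 over all genes. Each mRNA was also set against the mean of the 12 other than mt-Atp6 in its own library. By that measure only mt-Nd2 was higher and only mt-Atp8 lower without overlap, and the other 11 of 13 overlapped. mt-Nd2 had 1830.1, 1906 and 1883 FPKM in hypoxia plus ethanolamine and 1450.2, 1516 and 1439 in hypoxia (log2 change 0.35 ± 0.07 SE, adjusted p = 0.0795 by limma). mt-Nd4, another proton-pumping complex I subunit, had 1707, 1686 and 1724 FPKM in hypoxia plus ethanolamine and 1259, 1428 and 1270.4 in hypoxia (log2 change 0.37 ± 0.08 SE, adjusted p = 0.0894 by limma). mt-Cytb had 3340.2, 3291 and 3291 FPKM in hypoxia plus ethanolamine and 2556, 2774 and 2691 in hypoxia (log2 change 0.31 ± 0.07 SE, adjusted p = 0.0971 by limma), and mt-Nd1 3379, 3546 and 3390.4 in hypoxia plus ethanolamine and 2729, 2894 and 2734 in hypoxia (log2 change 0.30 ± 0.07 SE, adjusted p = 0.111 by limma). In the rest the log2 change was 0.32 for mt-Nd5, 0.35 for mt-Nd6, 0.32 for mt-Nd4l, 0.24 for mt-Nd3, 0.27 for mt-Co3, 0.22 for mt-Co1, 0.20 for mt-Co2 and 0.23 for mt-Atp8. Under quantile scaling mt-Co1 and mt-Co3 turned to the other side of 0, at -0.16 and -0.00388. mt-Atp6 had a log2 change of 0.91 (SE 0.62, limma, adjusted p = 0.548) with overlapping groups.

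The 13 mRNAs held 11.8, 10.9 and 11.04% of FPKM in hypoxia plus ethanolamine and 9.06, 10.3 and 9.20% in hypoxia, a difference of 1.76 points without overlap (exact permutation p = 0.1). Without mt-Atp6 the shares were 10.7, 10.6 and 9.99% in hypoxia plus ethanolamine and 8.83, 9.28 and 8.94% in hypoxia, still apart, and with FPKM times gene length the difference was 0.785 points (exact permutation p = 0.1). The log2 ratio of complex IV to complex I mRNAs was 1.83, 1.90 and 1.81 in hypoxia plus ethanolamine and 2.01, 1.83 and 1.96 in hypoxia, with overlap, and the ratio of mt-Nd6 to heavy-strand mRNAs was -1.09, -0.91 and -1.05 in hypoxia plus ethanolamine and -1.11, -1.10 and -1.03 in hypoxia, also with overlap. Without mt-Atp6 the mt-Nd6 ratio was -1.07, -0.995 and -1.03 in hypoxia plus ethanolamine and -1.19, -1.07 and -1.11 in hypoxia, where the groups no longer overlapped (difference 0.09, exact permutation p = 0.1). Both rRNAs had a log2 change below 0: mt-Rnr1 had 1541, 1812 and 1862 FPKM in hypoxia plus ethanolamine and 2138, 1942 and 1677 in hypoxia (log2 change -0.14 ± 0.20 SE, adjusted p = 0.784 by limma), and mt-Rnr2 1003, 1187 and 1209.7 in hypoxia plus ethanolamine and 1468, 1326 and 1084 in hypoxia (log2 change -0.18 ± 0.24 SE, adjusted p = 0.771 by limma). The log2 ratio of rRNA to mRNA was -4.03, -3.71 and -3.73 in hypoxia plus ethanolamine and -3.14, -3.44 and -3.53 in hypoxia, a difference of -0.46 without overlap (exact permutation p = 0.1) that was -0.42 without mt-Atp6. The share of rRNA-like rows was 6.23, 6.18 and 10.9% in hypoxia plus ethanolamine and 9.23, 11.3 and 6.99% in hypoxia, with overlap. Of the 22 tRNAs 20 had a log2 change above 0 (mt-Tk was below 0 under quantile scaling and under rescaling without mitochondrial and rRNA-like rows), led by mt-Ti, for isoleucine, at 0.79 ± 0.21 SE (adjusted p = 0.142 by limma), mt-Tg at 0.67 ± 0.26 SE (adjusted p = 0.276 by limma) and mt-Tm, for methionine, at 0.62 ± 0.14 SE (adjusted p = 0.105 by limma). mt-Tv and mt-Tf were below 0.

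**Figure D5:**
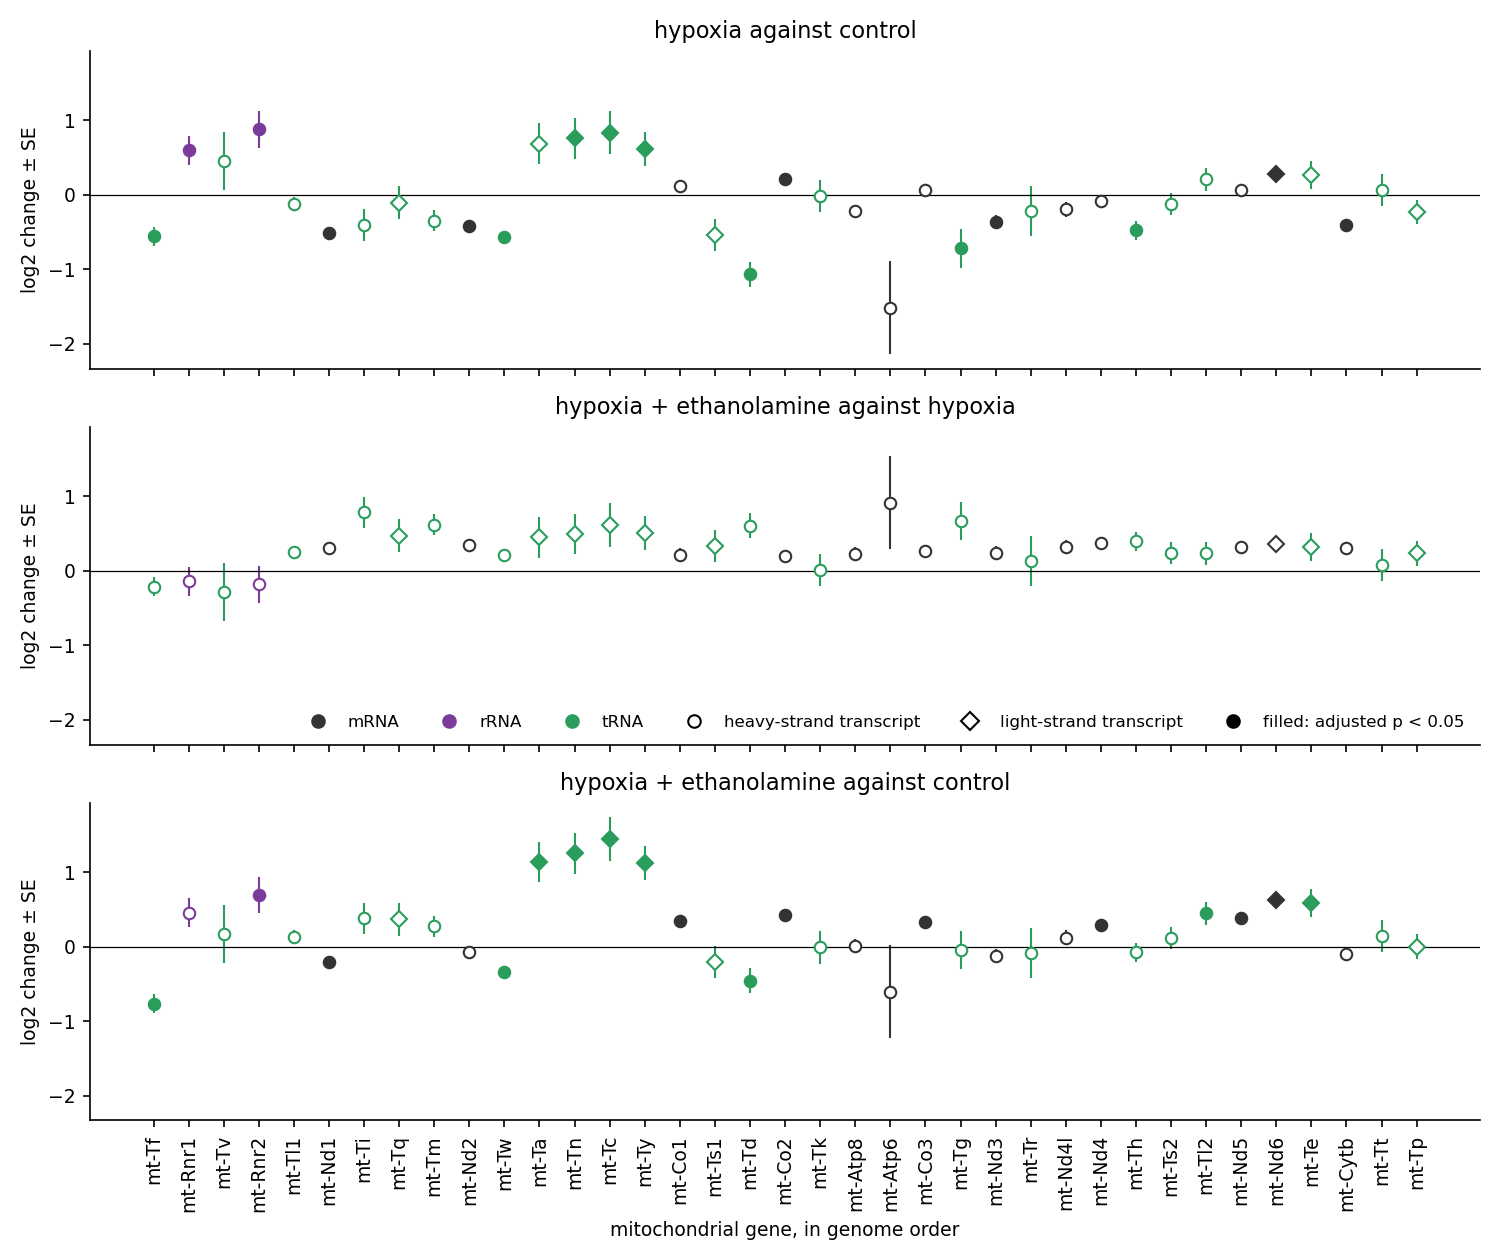
log2 change ± SE of all 37 members in genome order, for hypoxia against control, hypoxia plus ethanolamine against hypoxia, and hypoxia plus ethanolamine against control; diamonds are light-strand transcripts and filled symbols passed a limma adjusted p of 0.05. No symbol is filled in the middle panel, where 33 of 37 members lie above 0 (mt-Co1, mt-Co3 and mt-Tk do not under quantile scaling); the comparisons share libraries.

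Hypoxia plus ethanolamine was also set directly against the control. Here the complex IV mRNAs, mt-Nd4, mt-Nd5 and mt-Nd6 were higher than in control (mt-Co1 and mt-Nd4 changed sides under quantile scaling), mt-Nd1 was lower, and mt-Nd2, mt-Nd3, mt-Nd4l, mt-Cytb, mt-Atp8 and mt-Atp6 did not pass. In all 17 of 37 members passed, 13 higher and 4 lower (6 and 8 under quantile scaling, 14 and 2 under median-of-ratios scaling), against 58.5% of all genes tested, 24.1% higher and 34.4% lower. Of the 13 mRNAs 6 were higher and 2 lower without overlap, where 26.8% of all genes were higher and 37.7% lower. Without the filter on low values mt-Nd6, mt-Tf, mt-Tw, mt-Ta, mt-Tn, mt-Tc and mt-Ty still passed. This comparison shares the control with the first and the supplemented libraries with the second, so its values are not independent of theirs.

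mt-Nd6 differed most among the mRNAs, with 1559.6, 1669 and 1578 FPKM in hypoxia plus ethanolamine and 925, 1096 and 1086 in control (log2 change 0.63 ± 0.09 SE, adjusted p = 0.000212 by limma), and the call was kept in 20 of 20 other settings. mt-Co2 had 5083, 5408 and 4853 FPKM in hypoxia plus ethanolamine and 3621, 3798 and 4031 in control (log2 change 0.42 ± 0.08 SE, adjusted p = 0.00174 by limma). The log2 change was 0.34 ± 0.08 SE (adjusted p = 0.00635 by limma) for mt-Co1, which turned to -0.71 under quantile scaling, and 0.33 ± 0.07 SE (adjusted p = 0.00327 by limma) for mt-Co3. mt-Nd5 averaged 1767 ± 70.0 FPKM in hypoxia plus ethanolamine and 1354 ± 83.5 in control (log2 change 0.39 ± 0.08 SE, adjusted p = 0.00234 by limma). mt-Nd4 averaged 1706 ± 19.4 FPKM in hypoxia plus ethanolamine and 1395 ± 103 in control (log2 change 0.29 ± 0.08 SE, adjusted p = 0.0115 by limma) and turned to -0.09 under quantile scaling; its call was also lost when libraries were rescaled without mitochondrial and rRNA-like rows, with nuclear copies kept or also left out (adjusted p = 0.0625 and 0.0520). Under quantile scaling the calls of mt-Co2 (adjusted p = 0.0987), mt-Co3 (adjusted p = 0.873) and mt-Nd5 (adjusted p = 0.562) were lost as well. mt-Nd1 stayed below control, with 3379, 3546 and 3390.4 FPKM in hypoxia plus ethanolamine and 3802, 4044 and 4038 in control (log2 change -0.20 ± 0.07 SE, adjusted p = 0.0341 by limma). That call was lost without hypoxia plus ethanolamine library 1 or 3, or hypoxia library 1 or 3, or control library 2 or 3 (limma, adjusted p from 0.0563 to 0.121), under median-of-ratios scaling (adjusted p = 0.206) and with these 2 groups alone (adjusted p = 0.0579). The log2 changes of those that did not pass were -0.07 for mt-Nd2, -0.13 for mt-Nd3, 0.12 for mt-Nd4l, -0.10 for mt-Cytb, 0.01 for mt-Atp8 and -0.60 for mt-Atp6. Of these, under quantile scaling, mt-Nd2 (-0.45, adjusted p = 0.000736), mt-Nd3 (-0.36, adjusted p = 0.0263), mt-Cytb (-0.28, adjusted p = 0.0403) and mt-Atp8 (-0.53, adjusted p = 0.00561) passed as lower.

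The share of the 13 mRNAs in FPKM was 11.8, 10.9 and 11.04% in hypoxia plus ethanolamine and 10.8, 11.6 and 11.5% in control, with overlap and a difference of -0.03 points (exact permutation p = 1). With FPKM times gene length the difference was 0.462 points (exact permutation p = 0.1), and without mt-Atp6 it was 0.323 (p = 0.4 by the same exact test). The complex IV to complex I log2 ratio was 1.85 ± 0.04 in hypoxia plus ethanolamine and 1.55 ± 0.05 in control (SD, n = 3 each), again as a description of a ratio chosen after its values were seen. The mt-Nd6 to heavy-strand ratio was -1.02 ± 0.10 in hypoxia plus ethanolamine and -1.54 ± 0.07 in control, without overlap (exact permutation p = 0.1). mt-Rnr2 averaged 1133 ± 113 FPKM in hypoxia plus ethanolamine and 732 ± 284 in control with overlap (log2 change 0.69 ± 0.24 SE, adjusted p = 0.0344 by limma), a call lost without hypoxia plus ethanolamine library 2 or 3, or control library 1 or 3 (limma, adjusted p from 0.0870 to 0.104). It was also lost under quantile scaling or either rescaling without mitochondrial and rRNA-like rows, and with these 2 groups alone (adjusted p from 0.0534 to 0.204). mt-Rnr1 did not pass (log2 change 0.46 ± 0.20 SE, adjusted p = 0.0732 by limma) but did without control library 2 (limma, adjusted p = 0.00652) and under median-of-ratios scaling (adjusted p = 0.0405). The share of rRNA-like rows was 6.23, 6.18 and 10.9% in hypoxia plus ethanolamine and 1.81, 6.83 and 3.53% in control, and its part in the rRNA values was not tested.

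The 4 neighbouring light-strand tRNAs were each higher in all hypoxia plus ethanolamine libraries than in any control library. mt-Tc had 254, 502 and 403 FPKM in hypoxia plus ethanolamine and 105, 148 and 161 in control (log2 change 1.45 ± 0.29 SE, adjusted p = 0.00230 by limma). mt-Tn had 396, 798 and 603 FPKM in hypoxia plus ethanolamine and 218, 225 and 284 in control (log2 change 1.25 ± 0.27 SE, adjusted p = 0.00355 by limma), and mt-Ta and mt-Ty had log2 changes of 1.14 ± 0.27 SE (adjusted p = 0.00574 by limma) and 1.13 ± 0.23 SE (adjusted p = 0.00226 by limma). These 4 calls, and those of mt-Tf at -0.77 ± 0.13 SE (adjusted p = 0.000761 by limma) and mt-Tw at -0.35 ± 0.08 SE (adjusted p = 0.00483 by limma), both lower, were kept in 20 of 20 other settings. mt-Te, for glutamate, which neighbours mt-Nd6 on the light-strand transcript, averaged 247 ± 18.8 FPKM in hypoxia plus ethanolamine and 168 ± 45.1 in control (log2 change 0.59 ± 0.19 SE, adjusted p = 0.0229 by limma), a call lost without hypoxia plus ethanolamine library 2 or 3, or control library 1 (limma, adjusted p from 0.0529 to 0.0705), and under quantile scaling (adjusted p = 0.162). mt-Tl2, for leucine, was higher at 0.45 ± 0.15 SE (adjusted p = 0.0322 by limma), lost without hypoxia plus ethanolamine library 2, or control library 1 or 3 (limma, adjusted p from 0.0887 to 0.108). That call was also lost under either rescaling without mitochondrial and rRNA-like rows, and with these 2 groups alone (adjusted p from 0.0582 to 0.0646). mt-Td was lower at -0.46 ± 0.17 SE (adjusted p = 0.0414 by limma), lost without hypoxia plus ethanolamine library 1 or 2, or hypoxia library 1 or 3, or control library 2 or 3 (limma, adjusted p from 0.05001 to 0.134). That call was also lost with a pseudocount of 0.1, and under median-of-ratios or quantile scaling (adjusted p from 0.0589 to 0.0777). Of the tRNAs that did not pass, mt-Tm and mt-Tq passed without hypoxia plus ethanolamine library 1 (adjusted p = 0.0252 and 0.0242) and mt-Tl1 without control library 2 (adjusted p = 0.0226). The median log2 change was 0.86 over the 8 light-strand tRNAs and 0.06 over the 14 heavy-strand tRNAs.

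The nuclear genes that copy, transcribe and process the mitochondrial genome were read from a list of 64, of which 63 were in the table and 61 passed the filter on low values. Among the steps is polyadenylation, which in mitochondria also completes stop codons. In the sequences used here mt-Co3, mt-Nd4 and mt-Cytb end 1 base past their last whole codon, shown as the final 25 bases of each gene on the plus strand of GRCm38 with that base in capitals (chrM:9366-9390, chrM:11520-11544 and chrM:15264-15288).
mt-Co3: gtctccatttattgatgaggatctT
mt-Nd4: aaactaattacaggcctgacaataT
mt-Cytb: gacaaaatactaaaattatatccaT

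In hypoxia against control 41 of the 61 genes were lower and 1 was higher, with a median log2 change of -0.46, where 34.7% of all genes tested were lower. Polrmt, the mitochondrial RNA polymerase, averaged 2.70 ± 0.134 FPKM in hypoxia and 5.24 ± 0.220 in control (SD, n = 3 each, here and below; log2 change -0.84 ± 0.09 SE, adjusted p = 4.2e-05 by limma). Tfam, which packs the mitochondrial genome and starts its transcription, averaged 4.93 ± 0.228 FPKM in hypoxia and 9.40 ± 0.405 in control (log2 change -0.87 ± 0.08 SE, adjusted p = 1.13e-05 by limma). The elongation factor gene Tefm did not pass, at 9.28 ± 0.688 FPKM in hypoxia and 10.1 ± 0.0984 in control (limma, adjusted p = 0.296). The helicase gene Twnk averaged 14.1 ± 0.365 FPKM in hypoxia and 22.7 ± 0.624 in control (log2 change -0.67, limma, adjusted p = 1.23e-05), and Polg, the replicative polymerase, 2.99 ± 0.262 in hypoxia and 4.11 ± 0.419 in control (log2 change -0.40, limma, adjusted p = 0.00524). The 3 with the lowest changes were Mgme1, a nuclease of mitochondrial DNA, at -1.71 (limma, adjusted p = 1.26e-06), the nuclease and helicase gene Dna2 at -1.64 (adjusted p = 6.32e-07) and the rRNA methyltransferase gene Mrm3 at -1.50 (adjusted p = 1.57e-06). Only Esrra, an orphan nuclear receptor that acts on mitochondrial genes, was higher, at 8.60 ± 0.748 FPKM in hypoxia and 5.97 ± 0.304 in control (log2 change 0.49, limma, adjusted p = 0.000431).

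Among genes for RNA stability, Lrpprc, which binds and protects mitochondrial mRNAs, averaged 18.6 ± 0.933 FPKM in hypoxia and 29.4 ± 2.39 in control (log2 change -0.65, limma, adjusted p = 6.97e-05). Its partner Slirp did not pass, at 11.3 ± 4.28 FPKM in hypoxia and 8.44 ± 0.705 in control (limma, adjusted p = 0.316). Mtpap, the mitochondrial poly(A) polymerase, averaged 3.72 ± 0.407 FPKM in hypoxia and 5.29 ± 0.621 in control (log2 change -0.46, limma, adjusted p = 0.00978). The helicase and nuclease of the RNA degradosome, Supv3l1 and Pnpt1, had log2 changes of -0.69 (adjusted p = 0.000348) and -0.79 (adjusted p = 3.28e-05). The coactivator gene Ppargc1b averaged 2.34 ± 0.684 FPKM in hypoxia and 4.89 ± 0.496 in control (log2 change -0.94, limma, adjusted p = 0.000987), while Ppargc1a was below the filter in all groups. With ethanolamine against hypoxia none of the 61 passed, and 5 had an unadjusted limma p under 0.05, against 14.7% of all genes. In that comparison Polrmt averaged 3.01 ± 0.355 FPKM in hypoxia plus ethanolamine and 2.70 ± 0.134 in hypoxia, and Tfam 5.96 ± 0.499 in hypoxia plus ethanolamine and 4.93 ± 0.228 in hypoxia. Against control 38 were lower and 1, again Esrra, higher in hypoxia plus ethanolamine, where 34.4% of all genes were lower. Mgme1, Dna2 and Top1mt, a mitochondrial topoisomerase, were lowest there, at -1.59, -1.58 and -1.31 (limma, adjusted p = 2.38e-06, 9.74e-07 and 3.05e-06).

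Subunits of complexes I to V that are encoded in the nucleus were read from a list of 78, of which 75 were in the table and tested. In hypoxia against control 5 were higher, 18 lower and 52 did not pass, where 24.7% of all genes tested were higher and 34.7% lower, so both counts are below that background. The median log2 change was -0.07, close to the -0.09 of all genes. The 5 higher ones, named after their values were seen, were Ndufv3 at 1.83 (limma, adjusted p = 5.19e-07), Ndufb9 at 0.31 (limma, adjusted p = 0.0183), Atp5e at 0.30 (limma, adjusted p = 0.0495), Ndufa7 at 0.28 (limma, adjusted p = 0.0401) and Ndufs3 at 0.21 (limma, adjusted p = 0.0143). With ethanolamine against hypoxia none passed, and 18 had an unadjusted limma p under 0.05, against 14.7% of all genes tested. A log2 change above 0 was seen in 72 of 75, with a median of 0.16, against 0.01 over all genes. The mitochondrial mRNAs other than mt-Atp6 had a median of 0.31 in that comparison. In hypoxia plus ethanolamine against control 17 were higher and 7 lower, with a median of 0.08. Of all genes tested 24.1% were higher and 34.4% lower there, so the count of higher subunits is near the background and that of lower ones below it. By complex, 9 of 36 subunits of complex I were higher and 1 lower there, and 0 of 4 of complex II were higher and 2 lower. Complex III had 1 of 9 higher and 2 lower, complex IV 5 of 11 and 0, and complex V 2 of 15 and 2. In hypoxia against control the complex IV list had 0 higher and 1 lower. In hypoxia plus ethanolamine against control all 3 mitochondrial complex IV mRNAs were higher. Quantile scaling ended those calls for mt-Co2 and mt-Co3 and turned that of mt-Co1 round.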

How the data were processed

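RNA of BV2 cells was extracted with a Qiagen RNeasy kit and made into mRNA libraries with a SMARTER kit, per the labels' protocols. The authors deposited 1 table of FPKM values, aligned to GRCm38 (mm10), a build named in the submitters' processing notes; which aligner, counter and strand setting were used is not stated in the labels or the table. Low values did not fall on whole-read steps, so depth is unknown and no count test was made. From the FPKM, log2(FPKM + 0.5) of the 11802 genes averaging 1 FPKM or more was fitted by limma 3.58.1 (R 4.3.3, mean-variance trend) with 3 group means over 9 libraries, Benjamini-Hochberg adjusted at 0.05; single ratios, except the complex IV to complex I ratio, had an exact two-sided permutation test (Python 3.11.15). Fold changes on this scale understate low genes. The fit was also run on simulated data, with independent normal values and 200 genes changed in the hypoxia group alone. These are far fewer than the genes called here against control, so that run cannot vouch for these calls.

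The members and gene lists were chosen with earlier results of these data known. All members were named; of the nuclear machinery genes, 12 fixed ones and the 3 highest and 3 lowest past the threshold; nuclear subunits by count, with exceptions said. Positions come from GENCODE M21, which matched 55154 of 55335 IDs and all 37 members; copies were found with blastn 2.17.0 at 95% identity over 200 bases. Replicate numbers of the titles were not used to pair libraries, except in the settings with a replicate block. The alternatives were pseudocounts 0.1 and 1, filters, scalings, a replicate block, the 2 groups alone, no trend and each library left out.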

Additional observations from a re-analysis of the deposited data

How the results depend on the processing

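Over 20 other settings per comparison, 2006 gene values kept their direction and side of the threshold, 101 no longer passed, 43 newly passed and 61 turned to the other side of 0. Of those 61, 58 passed in neither setting. The other 3 were mt-Co1, mt-Nd4 and mt-Atp8 in hypoxia plus ethanolamine against control under quantile scaling. Filters, the replicate block, the 2 groups alone, no trend and leaving out a library of the third group do not alter a gene's log2 change. In these settings only a call could move, so the kept directions there were fixed in advance. Of the values that answer a comparison, 171 stayed close and 9 moved further. For the single ratios the replicate block leaves the difference as it was, so those entries could only stay close. A difference of group means counted as close when it moved by no more than the larger SD of the 2 groups, and a count of members when it moved by no more than 1.5 times. Small differences can change much within that tolerance. The share of mRNAs in hypoxia plus ethanolamine against control, -0.03 points, was -0.317 to 0.150 with 1 library left out and 0.434 without rRNA-like rows. The mt-Nd6 ratio of ethanolamine against hypoxia, 0.06, was 0.00266 to 0.0944 with 1 library left out, and the rRNA to mRNA ratio of hypoxia plus ethanolamine against control, 0.41, was 0.229 without control library 1 and 0.632 without control library 2. Without mt-Atp6 the latter was 0.37. Without a filter on low values, 7 members passed in hypoxia against control and 7 in hypoxia plus ethanolamine against control, among 27339 genes tested. The share of mRNAs in hypoxia against control was -0.323 points with FPKM times length and -1.09 without mt-Atp6; with ethanolamine against hypoxia it was 0.785 with FPKM times length, and against control 0.577 without rRNA-like rows and nuclear copies. The mt-Nd6 ratio in hypoxia against control was 0.549 with a geometric mean and 0.374 without mt-Atp6, and the complex IV to complex I ratio of hypoxia plus ethanolamine against control was 0.219 with mt-Nd6 included; the cause of these moves was not tested. The alternatives without mt-Atp6 or the nuclear copies, and those of the complex ratio, were chosen after the data were seen. Leaving out 1 library gave 11 to 19 members called in hypoxia against control, 0 with ethanolamine against hypoxia and 13 to 17 in hypoxia plus ethanolamine against control.

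Under quantile scaling these values turned to the other side of 0. In hypoxia against control they were mt-Tq (0.0165), mt-Co1 (-0.557), mt-Tk (0.0841) and mt-Nd5 (-0.0944). In ethanolamine against hypoxia they were mt-Co1 (-0.157), mt-Tk (-0.0199) and mt-Co3 (-0.00388). In hypoxia plus ethanolamine against control they were mt-Tl1 (-0.131), mt-Co1 (-0.715), mt-Tk (0.0642), mt-Atp8 (-0.527), mt-Tg (0.0735), mt-Tr (0.0129), mt-Nd4l (-0.143), mt-Nd4 (-0.0886) and mt-Tp (-0.120). Under median-of-ratios scaling these values turned to the other side of 0. In hypoxia against control they were mt-Tk (0.0791) and mt-Nd4 (0.0179). In hypoxia plus ethanolamine against control they were mt-Nd2 (0.0202), mt-Tk (0.0834), mt-Tg (0.0392), mt-Tr (0.000329) and mt-Th (0.0177). Under rescaling without mitochondrial and rRNA-like rows these values turned to the other side of 0. In ethanolamine against hypoxia it was mt-Tk (-0.0360). In hypoxia plus ethanolamine against control they were mt-Atp8 (-0.0505) and mt-Tp (-0.0621). With nuclear copies left out as well these values turned to the other side of 0. In ethanolamine against hypoxia it was mt-Tk (-0.0213). In hypoxia plus ethanolamine against control they were mt-Atp8 (-0.0340) and mt-Tp (-0.0457). With 1 library left out, the changes that crossed 0 had these ranges. For hypoxia against control they were -0.272 to 0.00545 for mt-Tq, -0.197 to 0.179 for mt-Tk, -0.488 to 0.127 for mt-Tr and -0.109 to 0.258 for mt-Tt. For ethanolamine against hypoxia they were -0.561 to 0.183 for mt-Tv, -0.186 to 0.111 for mt-Tk, -0.208 to 0.407 for mt-Tr and -0.102 to 0.205 for mt-Tt. For hypoxia plus ethanolamine against control they were -0.103 to 0.641 for mt-Tv, -0.186 to 0.184 for mt-Tk, -0.0443 to 0.0598 for mt-Atp8, -0.935 to 0.0344 for mt-Atp6, -0.316 to 0.173 for mt-Tg, -0.355 to 0.136 for mt-Tr, -0.215 to 0.0146 for mt-Th, -0.0565 to 0.220 for mt-Ts2, -0.0374 to 0.336 for mt-Tt and -0.163 to 0.111 for mt-Tp.

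Same-numbered libraries deviated together at correlations of -0.117 to 0.109. Values this small cannot decide if libraries with the same number were paired. With the replicate block 13, 0 and 17 members passed in hypoxia against control, ethanolamine against hypoxia and hypoxia plus ethanolamine against control. In ethanolamine against hypoxia 0 genes of all tested passed, against 67 without the block (14 higher, 53 lower), 40 without a filter, 6 with the 2 groups alone, 74 (5 higher, 69 lower) and 38 (3 higher, 35 lower) under rescaling without mitochondrial and rRNA-like rows, the second also without nuclear copies, and 0 to 38 with 1 library left out. In hypoxia plus ethanolamine against control every library correlated best with its own number, a hint from the data and not the design; in the other 2 comparisons this was not so. Unknown depth leaves the counting error of low tRNAs, such as mt-Td and mt-Ts1, unknown.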
